A study of Mus musculus with 4 samples.

Results

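Endothelial cells sense the drag of flowing blood and answer it with a small circuit of genes, and 9 genes of that circuit were measured here among 54446 genes of the deposited table, chosen by name. They are the mechanically gated ion channel gene Piezo1, the transcription factor gene Mef2c, the Krüppel-like zinc-finger factor genes Klf2, Klf4, Klf6 and Klf10, and the vasomotor genes Nos3, Edn1 and Ece1. All 9 were found, and all 9 averaged 1 FPKM or more, the level needed to enter the test. FPKM are fragments scaled to transcript length and to the size of the library.

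RNA was sequenced from endothelial cells sorted by flow cytometry from retinas of C57BL/6 mice at postnatal day 16, with 100 cells in each library. The samples of interest are titled Zeb1-CKO and carry the genotype "Zeb1 knockdown" (2 libraries), and the others are labelled control (2 libraries). The comparison asks how the sorted cells differ when Zeb1, a zinc-finger repressor of epithelial genes, is targeted. The sources used here do not name the driver of the conditional allele, the animals behind a library or the alleles of the controls.

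In textbook models, laminar shear stress opens PIEZO1 and acts through the kinase ERK5 on MEF2 factors, which switch on Klf2 and Klf4. KLF2 and KLF4 in turn raise Nos3, whose product makes the vasodilator nitric oxide, and lower Edn1, which encodes the precursor of the vasoconstrictor endothelin-1. The enzyme encoded by Ece1 cuts that precursor's large intermediate into the active peptide. Klf6 and Klf10 are family members that respond fast to injury and to TGF-β. Klf2, Klf4, Klf6 and Klf10 are also known as early response genes that rise when tissue is dissociated.

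Klf2 was the member that passed the test: its level in Zeb1-CKO cells was 0.539 times that in control cells. Klf4 was at 0.594 times and Edn1 at 0.712 times the control level, with all Zeb1-CKO libraries below all controls, but neither passed. Such separation on the lower side was seen for 22.3% of all fitted genes. Nos3, Piezo1 and Mef2c had somewhat lower values, Ece1 and Klf10 somewhat higher values, and Klf6 overlapped between genotypes. The test was limma's on log2(FPKM + 1), and a gene was called when its Benjamini-Hochberg adjusted p over all 13651 fitted genes was under 0.05. By it 1 of the 9 members was called lower and 0 were called higher, in a table where 3.13% of genes were called, 2.23% higher and 0.901% lower.

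**Figure D1:**
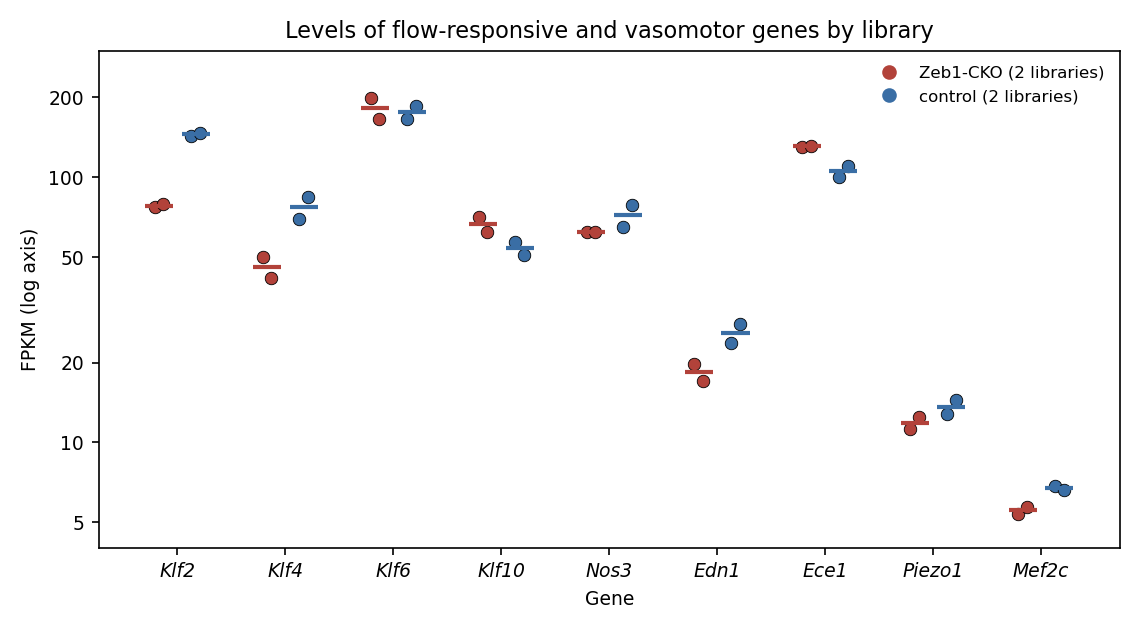
FPKM on a log axis for the 9 genes, with 1 point per library and a bar at the mean of the 2 libraries of each genotype, Zeb1-CKO left of control. Klf2 stands at 77.1 and 79.1 FPKM in Zeb1-CKO libraries, against 143 and 146 FPKM in controls, and Klf6 is the only gene whose genotypes overlap. Among all fitted genes, 49.4% had no overlap between genotypes.

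The promoters of Klf2 and Klf4 are shown because these genes had the largest differences of the 9. Each run is the stretch before the gene start in RefSeq (build GRCm38.p6, the assembly behind mm10), read 5′ to 3′ on the gene's strand, ending just before the first start that RefSeq or GENCODE annotates. Capitals mark a MEF2 consensus motif in Klf2 and, in both genes, the GC box GGGCGG on either strand, a sequence that KLF and SP factors bind. The Klf2 run lies at chr8:72318812-72319032 on the plus strand, and the Klf4 run at chr4:55532476-55532725 on the minus strand.
Klf2: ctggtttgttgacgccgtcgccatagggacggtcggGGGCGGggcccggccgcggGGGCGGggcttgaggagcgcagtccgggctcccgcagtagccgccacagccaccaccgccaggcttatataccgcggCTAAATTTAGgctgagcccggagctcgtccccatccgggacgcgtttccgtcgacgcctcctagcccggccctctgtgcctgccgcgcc
Klf4: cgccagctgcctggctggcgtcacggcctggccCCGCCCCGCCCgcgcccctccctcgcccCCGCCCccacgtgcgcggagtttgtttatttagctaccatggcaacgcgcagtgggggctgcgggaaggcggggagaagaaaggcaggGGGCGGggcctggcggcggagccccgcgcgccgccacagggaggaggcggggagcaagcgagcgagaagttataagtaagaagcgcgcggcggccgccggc

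The MEF2 match CTAAATTTAG reads the same on both strands and lies at chr8:72318944-72318953, bases -118 to -109 from the RefSeq start. RefSeq promoter windows of 300 bases, from 250 before to 50 after a gene start, were in hand for 7 of the 9 genes: Klf2, Klf4, Klf6, Edn1, Ece1, Piezo1 and Mef2c. Klf2 held the only MEF2 match among the windows of these 7 genes, and 3.19% of all 32851 mouse windows hold one. GC boxes numbered 2 in the Klf2 window and 4 in the Klf4 window, where the first 2 share a base, and 35.7% of all windows hold at least 1. The KLF-binding sequence CACCC was found at 1 place in the Klf2 window and 3 in the Edn1 window, and 57.5% of all windows hold it. The ZEB1-binding E-box CACCTG was found on neither strand of any window of the 7 genes, against 20.2% of all windows. By gene, 22.6% hold it in at least 1 window, and 7 genes are too few to tell their lack of it from that share. These matches describe the letters of the windows and were set against no binding data.

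**Figure D2:**
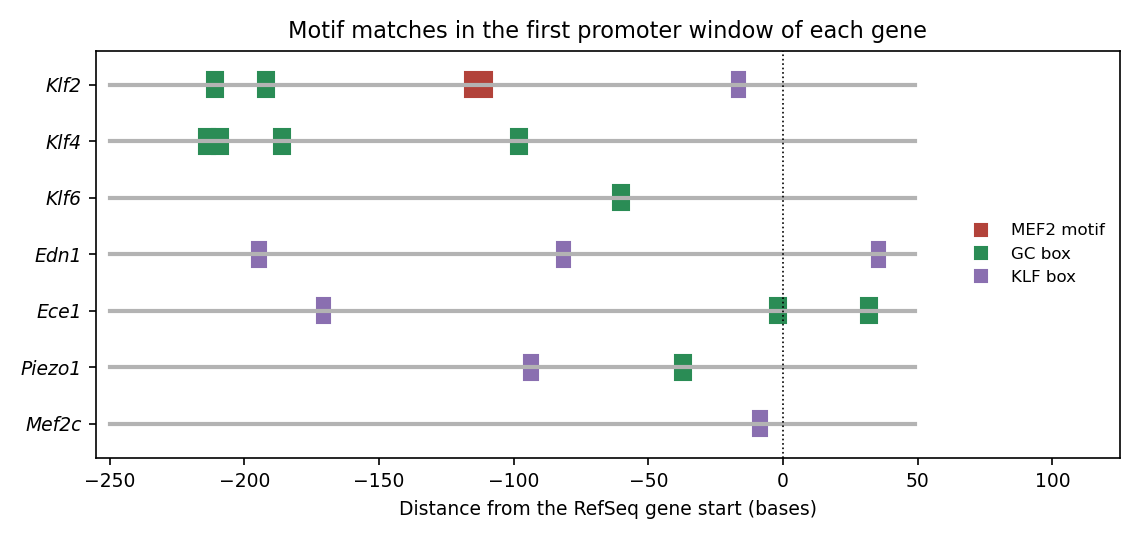
Positions of motif matches on either strand in the first promoter window of 7 genes, in bases from the RefSeq start, which is the dotted line. Red marks the MEF2 motif, found in Klf2 alone, green the GC box and violet the KLF box, the CACCC sequence named in the text.

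The libraries had estimated depths of 21.9 and 16.8 M fragments for Zeb1-CKO and 20.6 and 11.2 M for control, read from the steps between low FPKM values. The steps leave a doubling undecided: slightly more values lay on the steps of depths of 43.85 and 33.5 M for Zeb1-CKO and 41.09 and 22.36 M for control. On the lower estimate the members rested on between 465 fragments, for Mef2c in control 2, and 18403, for Klf6 in Zeb1-CKO 1. Zeb1 itself was at 8.66 and 7.07 FPKM in Zeb1-CKO libraries, against 10.7 and 11.1 FPKM in controls, with a limma adjusted p of 0.235. A value per gene does not separate a deleted exon from the rest of the transcript. None of 15 endothelial marker genes was called, and their summed FPKM were 4802 and 5217 in Zeb1-CKO libraries and 4292 and 5059 in controls. Separate animals are not stated for the libraries, and the p-values therefore reflect only how far these 4 samples spread, technical scatter included.

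The members spanned a wide range of levels. In Zeb1-CKO cells the order by mean FPKM ran from Klf6 (182) through Ece1 (131), Klf2 (78.1), Klf10 (66.5), Nos3 (62.1), Klf4 (45.8), Edn1 (18.4) and Piezo1 (11.9) to Mef2c (5.54). In control cells it ran from Klf6 (176) through Klf2 (145), Ece1 (105), Klf4 (77.2), Nos3 (71.8), Klf10 (53.9), Edn1 (25.8) and Piezo1 (13.6) to Mef2c (6.72). Klf2 stood at rank 3 in Zeb1-CKO cells and rank 2 in controls, and Klf4 at rank 6 in Zeb1-CKO cells and rank 4 in controls. The pairs of neighbours whose libraries overlapped were Klf10 and Nos3 in Zeb1-CKO cells and Klf4 and Nos3 in control cells; every other neighbouring pair was separated in its 2 libraries.

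Piezo1 (chromosome 8, 122481698 to 122551329, minus strand, mm10) encodes the channel that opens when the membrane is stretched. It was measured at 11.2 and 12.5 FPKM in Zeb1-CKO libraries, against 12.8 and 14.4 FPKM in controls. The groups nearly touch, since the higher Zeb1-CKO library lies just under the lower control. The log2 fold change was -0.18 (SE 0.14, 95% interval -0.54 to 0.18), with an adjusted p of 0.573. Its exons share 2441 of 9935 bases with Ctu2 on the opposite strand, in libraries whose kit does not mark strand, and Ctu2 was at 4.17 and 3.61 FPKM in Zeb1-CKO libraries, against 3.34 and 4.57 FPKM in controls.

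Mef2c (chromosome 13, 83504034 to 83667080, plus strand) encodes the MADS-box factor that relays ERK5 signals to the Klf2 promoter. It was the least abundant member, at 5.37 and 5.71 FPKM in Zeb1-CKO libraries, against 6.83 and 6.61 FPKM in controls. The replicates lay close together and the genotypes did not overlap. The difference of -0.24 (SE 0.14, 95% interval -0.59 to 0.11) on the log2 scale did not pass, with an adjusted p of 0.439.

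Klf2 (chromosome 8, 72319033 to 72321656, plus strand) encodes the factor most closely tied to laminar flow in endothelium. Its level was 77.1 and 79.1 FPKM in Zeb1-CKO libraries, against 143 and 146 FPKM in control libraries. The replicates differed 1.03-fold within Zeb1-CKO and 1.02-fold within control, and the genotypes were far apart. Means were 78.1 ± 1.42 FPKM in Zeb1-CKO cells and 145 ± 2.12 FPKM in control cells (SD, n = 2 each). Klf2 fell by 0.88 on the log2 scale (SE 0.12, 95% interval -1.19 to -0.58), with an adjusted p of 0.0255 by limma, and ranked 243 of 13651 genes by p. In a bulk library, fewer cells of a type that makes a transcript and less of it in each cell cannot be told apart.

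With any 1 of the 4 libraries left out, the Klf2 difference stayed between -0.90 and -0.87 while its adjusted p lay between 0.0748 and 0.140, so the call ended without control replicate 1, control replicate 2, Zeb1-CKO replicate 1 or Zeb1-CKO replicate 2. Those fits hold 3 libraries each.

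Klf4 (chromosome 4, 55527143 to 55532466, minus strand) is the closest partner of Klf2 in the flow response and shares many of its targets. It was at 49.9 and 41.7 FPKM in Zeb1-CKO libraries, against 69.7 and 84.6 FPKM in controls. Both Zeb1-CKO libraries were below both controls, with more scatter than for Klf2. Means were 45.8 ± 5.77 FPKM in Zeb1-CKO cells and 77.2 ± 10.5 FPKM in control cells (SD, n = 2 each). The log2 fold change of -0.74 (SE 0.16, 95% interval -1.15 to -0.33) did not pass at an adjusted p of 0.0848.

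Klf6 and Klf10 did not share the lower values of Klf2 and Klf4. Klf6 (chromosome 13, 5861482 to 5870394, plus strand), a factor induced in injured vessels, was at 199 and 166 FPKM in Zeb1-CKO libraries, against 166 and 186 FPKM in controls, and the genotypes overlapped. Its log2 fold change was 0.05 (95% interval -0.33 to 0.42; adjusted p of 0.907) and changed sign between scalings. Klf10 (chromosome 15, 38291463 to 38300706, minus strand), a TGF-β-inducible factor, was at 71.0 and 62.1 FPKM in Zeb1-CKO libraries, against 57.2 and 50.7 FPKM in controls. Both Zeb1-CKO libraries were above both controls, with a log2 fold change of 0.30 (SE 0.14, 95% interval -0.06 to 0.65) and an adjusted p of 0.355. Whether the difference of Klf2 differs from that of Klf10 was not tested.

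Ratios within a library do not depend on how libraries are scaled. Klf2 stood at 0.388 and 0.477 times Klf6 in Zeb1-CKO libraries, against 0.864 and 0.787 times in controls. Klf4 stood at 0.251 and 0.252 times Klf6 in Zeb1-CKO libraries, against 0.420 and 0.455 times in controls. The ratio of Klf2 to Klf4 overlapped between genotypes, at 1.55 and 1.90 in Zeb1-CKO libraries and 2.06 and 1.73 in controls. Set against the geometric mean of the 15 endothelial markers, Klf2 was at 0.640 in each Zeb1-CKO library, against 1.27 and 1.23 in controls. With libraries scaled to that mean, the Klf2 log2 fold change was -0.96, beside -0.88 in the main fit. The markers themselves were not constant. Of the 15, 6 were higher and 4 lower without overlap, where 49.4% of all fitted genes had no overlap. By limma, 4 had an unadjusted p under 0.05. The part of endothelial content in the Klf2 values was not tested.

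**Figure D3:**
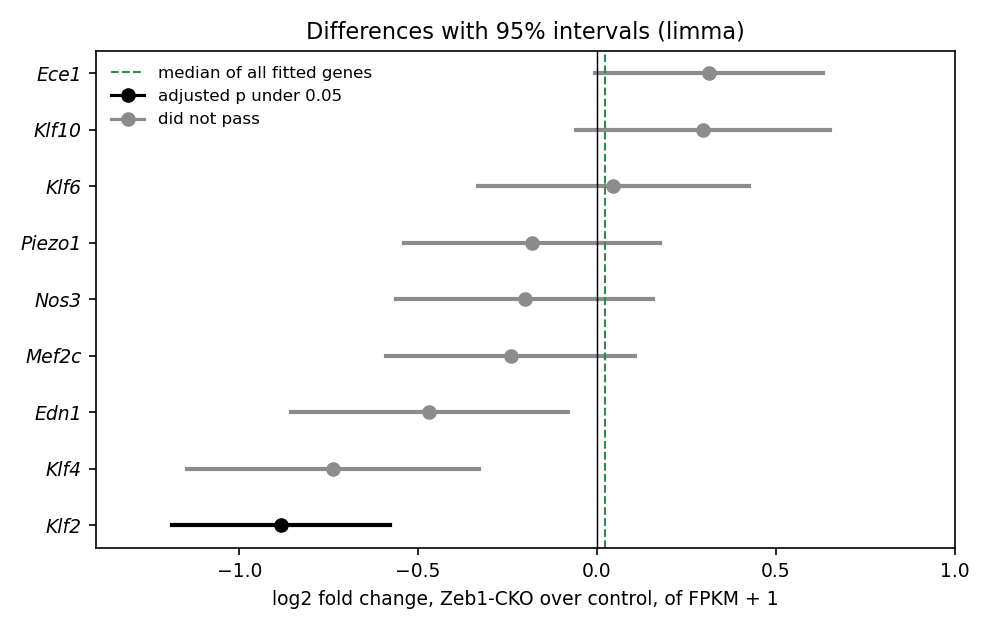
Log2 fold changes of the 9 genes, Zeb1-CKO over control, on the log2(FPKM + 1) scale, with 95% intervals from limma over 13651 genes; the dashed line is the median of all fitted genes, 0.02. Klf2, in black, passed the threshold, and the intervals of Klf4 and Edn1 also lie below 0 but their adjusted p do not pass.

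Nos3 (chromosome 5, 24364810 to 24384474, plus strand) encodes endothelial nitric oxide synthase. It was at 62.0 and 62.1 FPKM in Zeb1-CKO libraries, against 65.2 and 78.5 FPKM in controls. The Zeb1-CKO libraries were nearly equal and lay just under the lower control, so the spread between controls is larger than the gap. The log2 fold change was -0.20 (SE 0.15, 95% interval -0.56 to 0.16), with an adjusted p of 0.533. On the opposite strand, Gm15587 overlaps 1040 of the 4132 exon bases of Nos3, and Atg9b overlaps 294. Gm15587 was at 2.84 and 3.86 FPKM in Zeb1-CKO libraries, against 4.87 and 6.03 FPKM in controls.

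Edn1 (chromosome 13, 42301476 to 42307990, plus strand) was at 19.8 and 16.98 FPKM in Zeb1-CKO libraries, against 23.7 and 28.0 FPKM in controls. Both Zeb1-CKO libraries were below both controls. The log2 fold change of -0.47 (SE 0.16, 95% interval -0.85 to -0.08) had an unadjusted p of 0.0254 and an adjusted p of 0.203, and did not pass. Ece1 (chromosome 4, 137862237 to 137965229, plus strand) had higher values instead, at 130.3 and 131.5 FPKM in Zeb1-CKO libraries, against 100.3 and 110.4 FPKM in controls. Its log2 fold change was 0.31 (SE 0.13, 95% interval -0.01 to 0.63), with an adjusted p of 0.288.

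Set within libraries, Nos3 stood at 3.14 and 3.66 times Edn1 in Zeb1-CKO libraries, against 2.75 and 2.81 times in controls. Ece1 stood at 6.59 and 7.74 times Edn1 in Zeb1-CKO libraries, against 4.24 and 3.95 times in controls. Neither ratio overlapped between genotypes. An exact two-sided permutation test of a single ratio cannot go below p = 0.333 with 2 libraries each, so none was run.

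**Figure D4:**
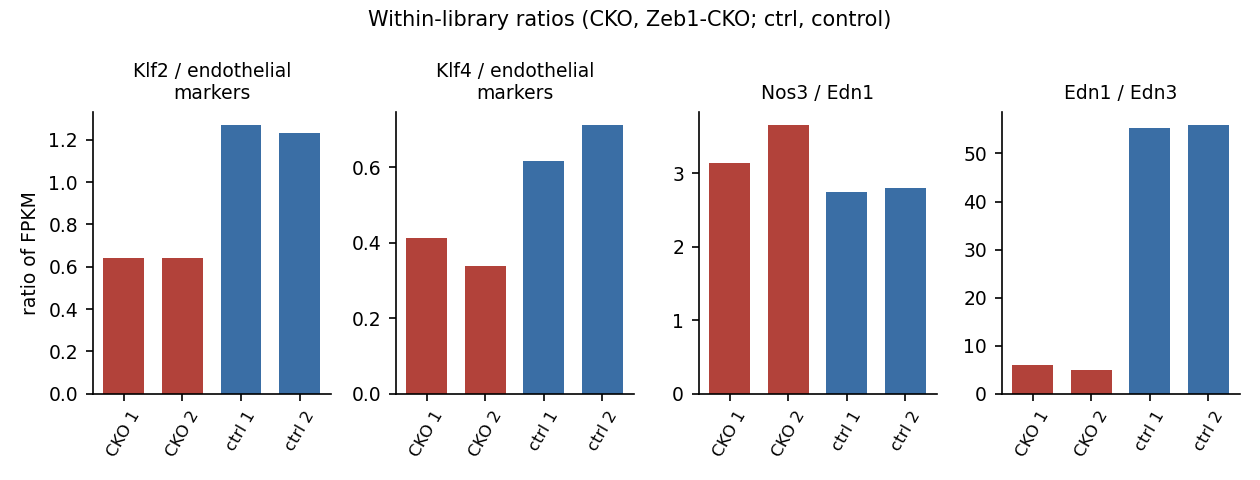
Ratios of FPKM within each library, from 0, for Klf2 and Klf4 over the geometric mean of 15 endothelial markers, Nos3 over Edn1, and Edn1 over Edn3, with Zeb1-CKO libraries in red and controls in blue. Klf2 over the markers is 0.640 in each Zeb1-CKO library, against 1.27 and 1.23 in controls, and Edn1 over Edn3 is 6.03 and 5.004 in Zeb1-CKO libraries, against 55.2 and 55.9 in controls.

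Over the 9 members, 3 log2 fold changes were positive and 6 negative, with a median of -0.20, beside a median of 0.02 over all fitted genes. Libraries were fully separated by genotype for 2 members with higher and 6 with lower values in Zeb1-CKO cells. Among all fitted genes, 27.1% were higher and 22.3% lower without overlap, 49.4% in all. At an unadjusted p under 0.05, 3 members passed (Klf2, Klf4 and Edn1), against 17.9% of all genes.

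Other genes of the circuit were taken from lists chosen with earlier results of these data known, and are described by counts. Of 13 other KLF factor genes, 8 were fitted and none was called by limma, against 3.13% of all genes. Their median log2 fold change was -0.10, and 2 had an unadjusted p under 0.05, against 17.9% of all genes. The most abundant were Klf13 and Klf11. Klf13 was at 43.998 and 53.2 FPKM in Zeb1-CKO libraries, against 49.96 and 58.9 FPKM in controls. Klf11 was at 15.8 and 16.9 FPKM in Zeb1-CKO libraries, against 17.1 and 16.7 FPKM in controls. The 2 genes under 0.05 were Klf5, with a log2 fold change of 0.95, and Klf9, with -0.57 (limma adjusted p of 0.0958 and 0.193). Klf5 was at 2.75 and 1.87 FPKM in Zeb1-CKO libraries, against 0.746 and 0.656 FPKM in controls. It reached a mean of 1 FPKM only through its Zeb1-CKO libraries. Of 7 genes of other MEF2 factors and the class IIa deacetylases that hold them inactive, 5 were fitted and none was called, also at an unadjusted p under 0.05. Mef2d was at 24.0 and 27.6 FPKM in Zeb1-CKO libraries and 29.0 and 29.7 FPKM in controls, and Hdac7 at 20.3 and 26.4 FPKM in Zeb1-CKO libraries and 27.6 and 23.3 FPKM in controls.

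Of 21 genes of flow sensing and its signalling, which include junctional sensors, G proteins and the kinases upstream of ERK5, 20 were fitted. None was called and 2 had an unadjusted p under 0.05; 10 were positive, and the median log2 fold change was -0.02. S1pr1, a receptor of the lipid sphingosine-1-phosphate that stabilises vessels, was at 190 and 173 FPKM in Zeb1-CKO libraries, against 195 and 196 FPKM in controls. Pecam1, an adhesion molecule of the junctional sensor complex, was at 182 and 164 FPKM in Zeb1-CKO libraries, against 141 and 145 FPKM in controls.

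Among 11 genes that KLF2 or KLF4 are known to raise, Nos3 included, 10 were fitted and none was called, with 2 at an unadjusted p under 0.05. Their median log2 fold change was -0.17, with 7 of 10 negative. Slc9a3r2, a scaffold protein gene, was at 134 and 135 FPKM in Zeb1-CKO libraries, against 166 and 161 FPKM in controls (adjusted p of 0.312). Among 12 genes that KLF2 is known to lower, Edn1 included, all were fitted. Of their log2 fold changes 7 were negative, with a median of -0.18, beside 0.02 over all fitted genes. Whether Klf2 has a part in the values of either list was not tested. Il6, an inflammatory cytokine gene, was the one called: it was at 24.8 and 15.0 FPKM in Zeb1-CKO libraries and 51.1 and 60.7 FPKM in controls, and fell by 1.48 on the log2 scale (adjusted p of 0.0434). That call ended without any 1 of the 4 libraries, at log2 fold changes of -1.83 to -1.14 and adjusted p of 0.0534 to 0.125.

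**Figure D5:**
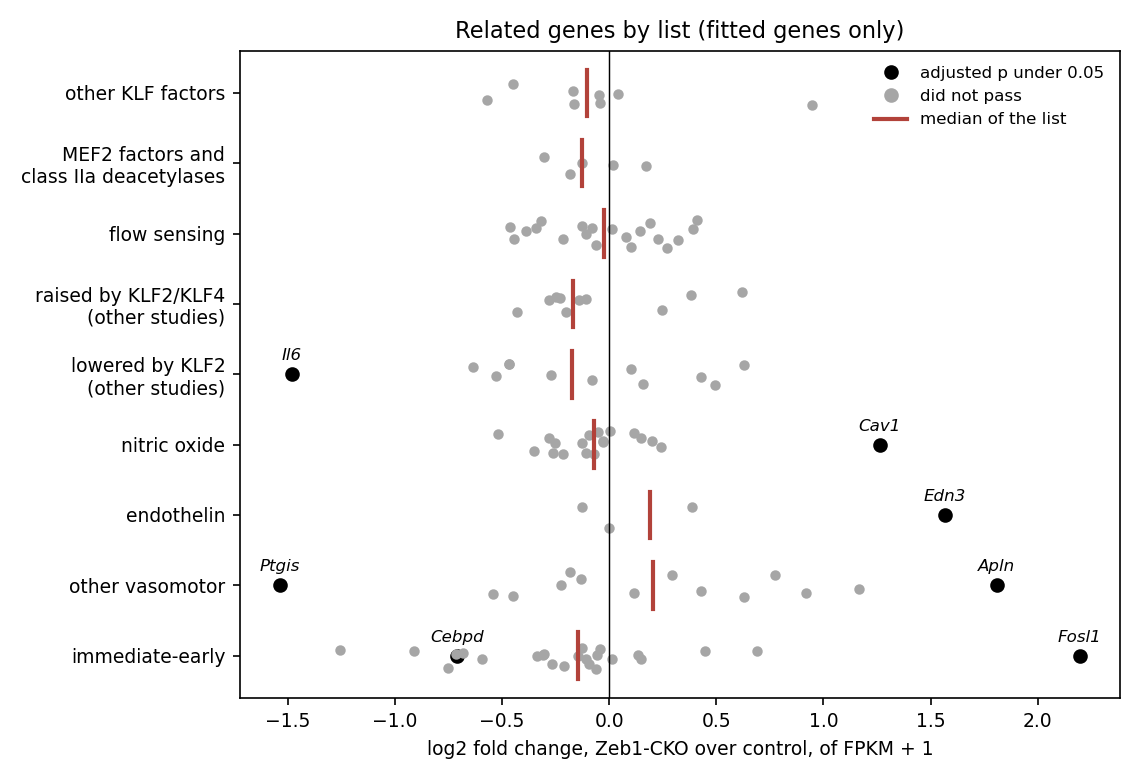
Log2 fold changes, Zeb1-CKO over control, on the log2(FPKM + 1) scale, of the fitted genes in 9 lists, with called genes in black and named, other genes in grey and the median of each list as a red bar. The called genes are Il6, Ptgis and Cebpd on the lower side and Cav1, Edn3, Apln and Fosl1 on the higher side. Edn3 entered the test only through its Zeb1-CKO libraries, so its call is not relied on.

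In the endothelin pathway the gene of another ligand had higher values in Zeb1-CKO libraries. Edn3, which encodes endothelin-3, a ligand that in mammals prefers the receptor EDNRB, was at 3.28 and 3.39 FPKM in Zeb1-CKO libraries, against 0.429 and 0.500 FPKM in controls. The genotypes were far apart beside their replicate spread. The log2 fold change was 1.57 (SE 0.18), with a limma adjusted p of 0.0173, on a scale that understates the change of so low a gene. Edn3 reached a mean of 1 FPKM only through its Zeb1-CKO libraries, so entry to the test was tied to the difference and the call is not relied on. With no filter its limma adjusted p was 0.120. The call also ended without Zeb1-CKO replicate 1 or 2, with adjusted p of 0.126 and 0.129 and log2 fold changes of 1.59 and 1.55.

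Edn1 remained the more abundant ligand gene in every library. It stood at 6.03 and 5.004 times Edn3 in Zeb1-CKO libraries, against 55.2 and 55.9 times in controls. Edn2 did not reach 1 FPKM. Of the receptors, Ednrb was at 13.5 and 13.04 FPKM in Zeb1-CKO libraries and 9.69 and 10.1 FPKM in controls (adjusted p of 0.215), and Ednra at 37.3 and 39.2 FPKM in Zeb1-CKO libraries and 43.3 and 40.5 FPKM in controls (0.661). Both receptors were named after their values were seen. Of the 7 genes of this list, 4 were fitted, and 3 of them did not pass.

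Of 23 genes of the nitric oxide pathway, 19 were fitted, 1 rose and 18 did not pass, with a median log2 fold change of -0.07. The one that rose was Cav1, which encodes a caveolar coat protein known to bind and restrain endothelial nitric oxide synthase, at 11.7 and 11.6 FPKM in Zeb1-CKO libraries, against 4.50 and 4.04 FPKM in controls (log2 fold change 1.26, adjusted p of 0.0149). It lost the call without Zeb1-CKO replicate 1 or 2, with adjusted p of 0.116 and 0.121. The inducible synthase gene Nos2 was at 5.28 and 4.23 FPKM in Zeb1-CKO libraries and 4.85 and 5.198 FPKM in controls. Slc7a1, which encodes an importer of the substrate arginine, was at 46.8 and 51.2 FPKM in Zeb1-CKO libraries and 68.6 and 72.4 FPKM in controls, and did not pass (adjusted p of 0.112). Nos2 and Slc7a1 were also named after their values were seen.

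Of 20 other vasomotor genes, 14 were fitted, 1 rose, 1 fell and 12 did not pass, where 3.13% of all genes were called. At an unadjusted limma p under 0.05 there were 7 of the 14, against 17.9% of all genes. Without overlap, 7 were higher and 5 lower, against 27.1% and 22.3% of all genes. Ptgis, which encodes the synthase of the vasodilator prostacyclin, was at 14.0 and 13.1 FPKM in Zeb1-CKO libraries, against 41.7 and 41.0 FPKM in controls. It fell by 1.54 on the log2 scale (SE 0.13), with an adjusted p of 0.00524. The call ended without Zeb1-CKO replicate 1 or 2, with adjusted p of 0.0534 and 0.0598 and log2 fold changes of -1.58 and -1.49. Apln, the gene of the vasodilator peptide apelin, was at 189 and 171 FPKM in Zeb1-CKO libraries, against 48.0 and 53.2 FPKM in controls, with a log2 fold change of 1.81 and an adjusted p of 0.00376, and was called without any 1 library. Bdkrb2, a bradykinin receptor gene named after its values were seen, was at 24.9 and 19.8 FPKM in Zeb1-CKO libraries and 7.61 and 11.4 FPKM in controls (adjusted p of 0.0604).

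Early response genes, a group that cells are known to switch on during dissociation and sorting, had summed levels of 8063 and 7790 FPKM in Zeb1-CKO libraries, against 7975 and 8554 FPKM in controls. The largest share of these sums was Fos, a gene of the AP-1 complex, at 2064 and 1914 FPKM in Zeb1-CKO libraries and 2077 and 2064 FPKM in controls. Of the 26, 25 were fitted, 1 rose, 1 fell and 23 did not pass. Of these 25, 19 log2 fold changes were negative and the median was -0.14. At an unadjusted p under 0.05 there were 10 of the 25, against 17.9% of all genes, and 13 of the 25 were lower in Zeb1-CKO cells without overlap, against 22.3% of all genes. The AP-1 subunit gene Fosl1 was at 18.8 and 19.8 FPKM in Zeb1-CKO libraries, against 2.95 and 3.97 FPKM in controls (log2 fold change 2.20, adjusted p of 0.00382), and Cebpd, a bZIP factor gene, was at 61.3 and 60.8 FPKM in Zeb1-CKO libraries, against 103 and 98.5 FPKM in controls (log2 fold change -0.71, adjusted p of 0.0475). Without Zeb1-CKO replicate 1 or 2, the adjusted p of Fosl1 was 0.0534 and 0.0595. Cebpd lost its call whichever of the 4 libraries was left out, at adjusted p of 0.128 to 0.193. The part of the dissociation response in the Klf2 and Klf4 values was not tested.

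Markers of other cells moved beside these values. Of 10 pericyte markers all had negative log2 fold changes and none was called, with sums of 1725 and 1928 FPKM in Zeb1-CKO libraries, against 2493 and 2022 FPKM in controls, led by Rgs5 and Higd1b. Smooth-muscle markers summed to 249 and 326 FPKM in Zeb1-CKO libraries and 560 and 419 FPKM in controls, led by Myl9 and Acta2, and 1 of 5 fitted genes fell. Microglial markers, led by Lyz2 and Tyrobp, summed to 22.8 and 10.7 FPKM in Zeb1-CKO libraries, against 26.7 and 81.5 FPKM in controls. Aif1, at low levels, overlapped between genotypes, at 0 and 0.309 FPKM in Zeb1-CKO libraries and 0.0549 and 1.20 FPKM in controls. Red-cell genes, led by Hba-a1 and Hbb-bs, summed to 745 and 1409 FPKM in Zeb1-CKO libraries, against 2727 and 3298 FPKM in controls, with no call among 5. Lower values without overlap were found for all 5 red-cell, 5 of 5 fitted smooth-muscle, 7 of 10 pericyte and 4 of 7 fitted microglial genes. Among all fitted genes this share was 22.3%. Of the microglial genes in that count, C1qc and Csf1r reached a mean of 1 FPKM only through their control libraries. C1qc was at 1.13 and 0.809 FPKM in Zeb1-CKO libraries, against 2.08 and 5.93 FPKM in controls. Csf1r was at 0.808 and 1.11 FPKM in Zeb1-CKO libraries, against 1.62 and 4.46 FPKM in controls. Entry of both to the test was tied to the difference, so the microglial count is not relied on. No fitted gene of the red-cell, smooth-muscle, pericyte or microglial lists was higher without overlap, against 27.1% of all fitted genes. The microglial gene P2ry12 averaged under 1 FPKM and was not fitted. It was higher without overlap, at 0.861 and 0.993 FPKM in Zeb1-CKO libraries, against 0.615 and 0.441 FPKM in controls. Of 7 fitted glial markers, 4 were higher and 1 lower without overlap, against 27.1% and 22.3% of all fitted genes.

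Lymphocyte markers are relevant because T and B cells also use Klf2, and Cd79b and Cd79a were the most abundant. Cd79b, at 2.23 and 2.43 FPKM in Zeb1-CKO libraries and 0.554 and 0.202 FPKM in controls, reached a mean of 1 FPKM only through its Zeb1-CKO libraries, so its limma result is not used. The T-cell genes Cd2, Cd3d, Cd3e and Cd3g were at 0.186 FPKM or less in every library. Cd3d and Cd3g were listed at 0 in both Zeb1-CKO libraries, Cd3d also in control 2, and Cd3e in Zeb1-CKO 2 and control 2. Glial markers, led by Apoe and Gfap, summed to 323 and 361 FPKM in Zeb1-CKO libraries and 303 and 328 FPKM in controls. The part of these cells in the members' values was not tested.

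The genes most like a member were those with the smallest Euclidean distance between centred log2(FPKM + 1) values over the 4 libraries, among genes of at least 5 FPKM. For Klf2 these were Apcdd1, a membrane Wnt inhibitor gene, at 56.6 and 56.7 FPKM in Zeb1-CKO libraries against 100.4 and 111 FPKM in controls, and the collagen galactosyltransferase gene Colgalt1, at 17.1 and 17.8 FPKM in Zeb1-CKO libraries against 35.3 and 34.3 FPKM in controls. Their distances were 0.085 and 0.090. For Klf4 they were the early response gene Ier5 (0.046) and the protease gene Adamts8 (0.062). For Nos3 they were the ribosomal protein gene Rpl27 (0.026) and Colgalt2 (0.027), and for Edn1 the gene Arid5a (0.039) and the anticoagulant receptor gene Thbd (0.048). Each distance rests on 4 libraries, 2 of each genotype, among 6658 candidate genes.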

How the data were processed

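The 9 genes and all gene lists were chosen with earlier results of these data known. The authors deposited FPKM per gene, a unit read from the values and the tools; per the submitters' processing notes these were Trimmomatic 0.36, HISAT2 2.1.0 and StringTie 1.3.3 with build mm10, and the sources used here do not give settings or annotation. Columns were matched to samples by name. Genotype was the single factor of a limma fit (version 3.58.1 in R 4.3.3, variance trend on) to log2(FPKM + 1). The 13651 genes averaging 1 FPKM or more entered, and Benjamini-Hochberg adjustment ran over all of them. The fit was also run on data simulated from its own fitted variances, which meet its assumptions by design and so do not test them. FPKM are not counts, so no count test was run.

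Because FPKM are scaled to the library total, a large change elsewhere shifts every gene, and fold changes on this scale understate low genes. Depth was estimated as the spacing of FPKM times length in genes with 1 transcript, where 17.04% to 22.8% of low values lay within 0.02 of a whole step, against 4% at random. Reads were amplified without molecular identifiers. Gene spans and overlaps come from GENCODE M21, which matched 53229 of 54446 identifiers. BLAST 2.17.0 (at least 95% identity over at least 80% of a transcript and 200 bases) found a near-identical partner only for Piezo1, the overlapping gene Ctu2. Promoters come from RefSeq. Figures were drawn with matplotlib 3.10.9.

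Genes named are the 9 members, from each list the called genes (at most 4, ordered by p) or else the 2 highest by mean FPKM, the 2 most abundant of each marker list (the lists for retinal neurons, and part of that for lymphocytes, are not reported here), and for Klf2, Klf4, Nos3 and Edn1 the 2 most similar genes of at least 5 FPKM. Outside that rule, Klf5, Klf9, Edn2, Ednra, Ednrb, Nos2, Slc7a1, Bdkrb2 and Fos were named after their values were seen. So were Aif1, C1qc, Csf1r, P2ry12, Cd2, Cd3d, Cd3e and Cd3g. Zeb1, Gm15587, Atg9b and Ctu2 were named as the targeted and overlapping genes. Other settings tried were a block on replicate number, fits lacking 1 library, pseudocounts of 0.1 and 5, other filters, 3 scalings, 2 variance models and a threshold of 0.10.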

Additional observations from a re-analysis of the deposited data

How the results depend on the processing

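The directions of 8 members were kept under all 16 alternatives, but several of these could not change a direction. In this balanced design the blocks, the other filters, the variance models and the looser threshold leave each log2 fold change as in the main fit. Directions could move only with the pseudocounts, the scalings and the fits lacking 1 library. Klf6, which was never called, reversed to -0.0068 with upper-quartile scaling and -0.030 with scaling to the endothelial markers, and ranged from -0.084 to 0.176 with 1 library left out. Klf2 ranged from -0.96 to -0.85, with adjusted p of 0.0207 to 0.140. The replicate number as a block left the Klf2 difference at -0.88 with an adjusted p of 0.0956, 0 members called, and 155 genes higher and 38 lower, against 304 and 123 without it. Of the genes outside the 9, the block ended the calls of Edn3 (adjusted p 0.0502), Il6 (0.0887) and Cebpd (0.142), and fitting with no filter those of Edn3 (0.120), Il6 (0.228), Cebpd (0.180) and Cav1 (0.0765). Fitting with no intensity trend ended those of Il6 (0.0605) and Cebpd (0.0793), and a pseudocount of 5 that of Cebpd (0.0513). The labels do not say that a number pairs libraries, and the replicate differences of the genotypes correlated at r = -0.118 across genes. A block with crossed numbers, chosen after seeing the data, called 2 members, Klf4 at -0.74 among them. With 1 library left out, 0 to 0 members were called, 44 to 224 genes were higher and 15 to 59 lower, and Klf2 lay between -0.90 and -0.87; these fits hold fewer samples. With no filter on low values, 38986 genes were fitted, 70 were higher and 15 lower, and 0 members passed, Klf2 at -0.88. With a mean of at least 5 FPKM, 169 genes were higher. At an adjusted p under 0.10, 553 genes were higher and 306 lower and 2 members passed, Klf4 at -0.74. The shallowest library, control replicate 2, had an estimated 11.2 M fragments, or 22.36 M at the doubled step.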
